A study of Mus musculus with 50 samples.

Results

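The genes described here encode the potassium channels of the mouse, namely the 93 protein-coding genes whose symbol starts with Kcn, with the inward rectifier gene Kcnj10 left out, among 21938 protein-coding genes of the GENCODE M21 annotation (mm10). Their chromatin was read for 2 transcription factors, the glucocorticoid receptor (GR) and the nuclear factor I protein NFIA, by CUT&RUN, in which an antibody guides a nuclease to a bound protein so that the DNA fragments around it are released and sequenced. For each gene, the peaks of every library within 50 kb of the gene's annotated start were counted, a window that covers 0.332% of the genome when the 93 windows are merged. The class of a gene was read from its symbol: 30 encode pore subunits of voltage-gated channels, 10 encode modifier pore subunits that do not form channels alone, 8 encode channels opened by calcium or sodium, 14 encode inward rectifiers, 14 encode two-pore channels and 17 encode auxiliary subunits or regulators.

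Peak lists were at hand for 39 of 50 samples, of which 27 were for GR and 12 for NFIA; 11 samples, made with IgG or from nuclei without GFP, were not analysed here. The in vivo libraries came from primary visual cortex (V1) at postnatal day 14 (P14), each from tissue pooled from several mice and from 175000 sorted GFP-positive nuclei. Astrocytes were labelled by a virus, injected around birth, that expressed a nuclear envelope GFP from the astrocyte promoter GfaABC1D. In WT mice this virus also carried ΔCre, an inactive recombinase, and the mice were kept in a normal light cycle (NR, 3 GR libraries and 3 NFIA libraries) or in darkness from birth (DR, 3 GR libraries). The astrocyte NFIA libraries are WT by their labels, whereas the methods of the study also name floxed receptor mice for astrocyte NFIA, and the label was kept. In mice with a floxed receptor gene, GRfl/fl, the same virus with ΔCre gave GR-Con (2 libraries) and the virus with active Cre gave GR-KO (2 libraries), both in normal light. The other cell types were sorted from NR mice carrying Sun1-GFPfl/fl with Olig2-Cre (oligodendrocytes), Slc32a1-Cre (inhibitory neurons, InN) or Slc17a7-Cre (excitatory neurons, ExN), with 3 GR and 3 NFIA libraries each; this reporter genotype is that of the labels, and the methods give 1 floxed copy, Sun1-GFPfl/+. Olig2 is also active in progenitors, and GFP marks any nucleus whose lineage once expressed the Cre driver. The cell line was 3T3, a mouse fibroblast line of WT genotype kept in serum stripped of steroids and exposed for 2 h to 200 nM dexamethasone (DEX, a synthetic glucocorticoid) or to vehicle, with 2 GR libraries for each treatment at 250000 and at 50000 nuclei.

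Potassium channels set the resting potential of cells, end action potentials and clear potassium from the space around active neurons. Voltage-gated subunits of the Kv families, Kv7 (Kcnq) and ether-à-go-go (Kcnh) channels repolarise neurons; calcium-activated channels such as the SK (Kcnn) and BK (Kcnma1) channels follow calcium entry; inward rectifiers (Kcnj) and two-pore leak channels (Kcnk) hold the resting potential, and in astrocytes they carry most of the membrane's potassium conductance. GR is held in the cytoplasm until a glucocorticoid binds it, then enters the nucleus, where it binds its response element, a palindrome of 2 half-sites, or associates with other factors. NFIA is a factor of the glial lineage that binds a palindrome with the half-site TTGGCA.

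In NR astrocytes both factors were called near many potassium channel genes, at shares under those of all genes. A consensus site is a region, merged over the libraries of a group, that 2 or more of them called. In NR astrocytes such a site for GR lay within 50 kb of 33 of the 93 genes (35.5%), beside 50.4% of all protein-coding genes. For NFIA in astrocytes the numbers were 50 of 93 (53.8%) beside 65.2%. In GR-Con astrocytes 18 genes (19.4%) had a GR site, beside 20.7% of all genes. In DR astrocytes, GR-KO astrocytes and oligodendrocytes no potassium channel gene had a GR site in its window, beside 0.337%, 0.647% and 0.775% of all genes. The shares in neurons were 9 of 93 (9.68%) in InN, beside 4.99%, and 9 of 93 in ExN, beside 8.82%.

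NFIA sites outside astrocytes were few: 2 genes in oligodendrocytes (Kcnab3 and Kcnj9, 2.15%, beside 1.39%), 5 in InN (Kcna3, Kcnj4, Kcnk4, Kcnrg and Kcnt1, 5.38%, beside 3.53%) and none in ExN, beside 1.97%. The peak lists behind these sites were small, down to 1 peak in ExN replicate 3. In 3T3 cells at 250000 nuclei, 10 genes (10.8%) had a GR site after DEX, beside 10.2%, and none after vehicle, beside 1.52%. At 50000 nuclei, 2 genes (Kcnh6 and Kcnv2, 2.15%) had one after DEX, beside 2.44%, and none after vehicle, beside 0.807%. Counting only sites called in every library of the group left 10 genes for GR in NR astrocytes, beside 10.6% of all genes, and 43 for NFIA, beside 59.1%.

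**Figure D1:**
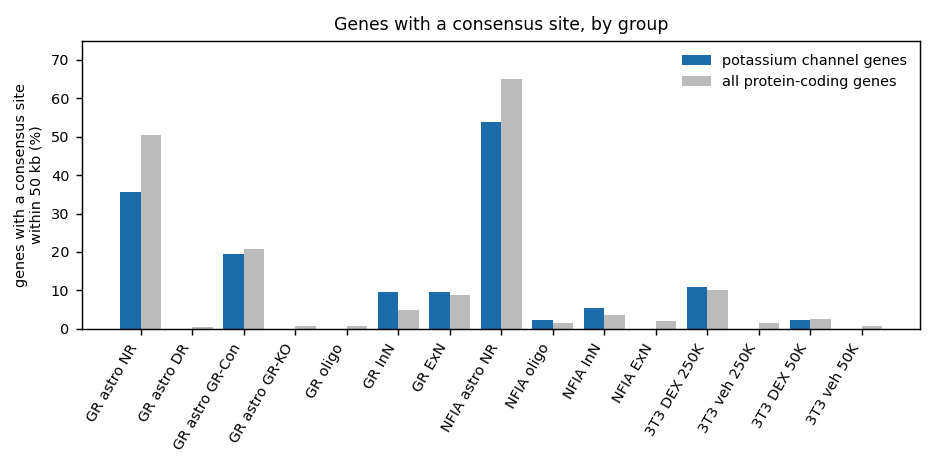
Share of the 93 potassium channel genes (blue) and of all protein-coding genes (grey) that had a consensus site in the window of 50 kb, in percent, for each of the 15 groups of libraries. The blue bar is below the grey one in NR astrocytes for both GR (35.5% beside 50.4%) and NFIA (53.8% beside 65.2%), and above it in InN for GR (9.68% beside 4.99%).

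The libraries differed widely in how many peaks they held. The NR astrocyte GR lists held 14012, 2262 and 21539 peaks for replicates 1, 2 and 3, and a peak in the window of 38, 12 and 51 potassium channel genes. The DR lists held 69, 28 and 293 peaks, with 3 potassium channel genes reached in replicate 3 and none in the others. GR-Con held 7761 and 6792 peaks (25 and 26 genes) and GR-KO held 1846 and 413 (7 and 6 genes). NFIA lists of astrocytes held 22373 to 27143 peaks and reached 50 to 54 of the genes. Those of other cell types were smaller, with 201, 722 and 111 peaks in oligodendrocytes and 1907, 178 and 1288 in InN. For ExN they held 4173, 246 and 1. The GR lists held 110, 81 and 4 peaks in oligodendrocytes and 2446, 916 and 1534 in InN. In ExN, replicate 1 supplied most of the signal, with 4563 GR peaks and 33 genes reached, against 61 and 1644 peaks in the other replicates. The deposited lists give no read numbers, so the depth behind these differences is unknown, and its part in them was not tested. Peak height did not separate the channel genes: in the NR libraries the median fold enrichment of peaks in their windows was 6.24, 6.20 and 6.71, against 6.24, 5.99 and 6.63 over all peaks.

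Labels were compared with marker genes fixed by cell type. All 6 astrocyte markers had a site within 50 kb in NR, GR-Con and NFIA astrocytes, beside 50.4%, 20.7% and 65.2% of all genes. Markers of other cells had sites there too. Of 6 oligodendrocyte lineage markers, 3 had a GR site in NR, 3 in GR-Con and 4 an NFIA site. In NR astrocytes a GR site also lay at 1 of 8 inhibitory and 2 of 6 excitatory markers. In GR-KO astrocytes Olig1 and Olig2 had a GR site (33.3%, beside 0.647% of all genes). In oligodendrocytes none of 6 oligodendrocyte markers had a GR site or an NFIA site, beside 0.775% and 1.39% of all genes. InN libraries had a GR site at 2 of 8 inhibitory markers (25%, beside 4.99%) and ExN libraries at 1 of 6 excitatory markers (16.7%, beside 8.82%). A factor need not bind the marker genes of the cell that holds it, and the lists hold no expression, so these counts do not test the identity of the sorted nuclei or the loss of the receptor in GR-KO.

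Many potassium channel genes lie alone. Of the 93, 51 (54.8%) had no other protein-coding start within 50 kb, beside 27.1% of all genes. The median number of other starts in the window was 0 for these genes and 2 for all genes. Their median length was 29.6 kb, beside 17.4 kb. Among the isolated genes, 10 of 51 (19.6%) had a GR site in NR astrocytes, beside 33.2% of isolated genes of all kinds. With 1 to 2 other starts the numbers were 10 of 25 (40%) beside 50.8%, and with 3 to 5 they were 10 of 14 (71.4%) beside 60.1%. All 3 genes with 6 or more other starts had a site, beside 73.7%. NFIA followed the same order, from 16 of 51 (31.4%) beside 49.6% with no other start to 13 of 14 (92.9%) beside 72.4% with 3 to 5. The shares of channel genes were under those of all genes among isolated genes for both factors and, for GR, among genes with 1 to 2 other starts, and were above them in the more crowded windows, which hold 17 channel genes in all.

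**Figure D2:**
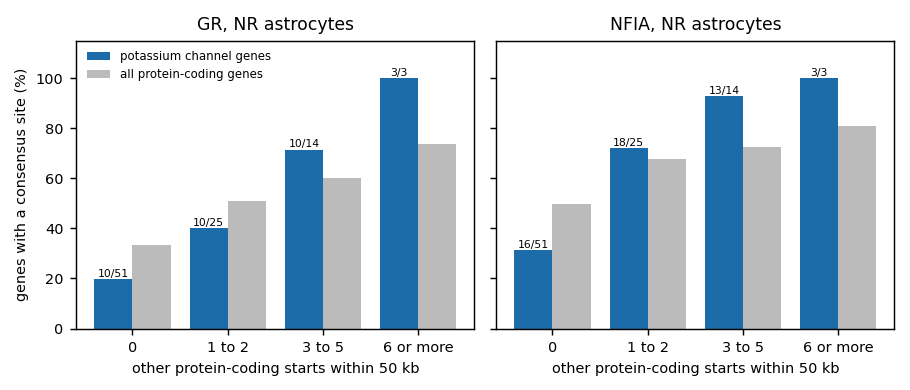
Share of genes with a consensus site (percent) against the number of other protein-coding starts within 50 kb, for GR (left) and NFIA (right) in NR astrocytes, with potassium channel genes in blue (numbers above the bars are genes with a site over genes in the class) and all protein-coding genes in grey. For GR the blue bars climb from 19.6% with no other start to 71.4% with 3 to 5.

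Many of the sites lay closer to a neighbouring gene than to the channel gene. The windows held 86 GR sites of NR astrocytes, and the nearest protein-coding start was that of a potassium channel gene for 27 of them (31.4%, at 16 genes) and that of another gene for 59. Of the 86, 45 (52.3%) lay within 500 bp of an annotated transcript start, here called promoter, beside 47.0% of all NR GR sites. Only 9 of the 27 sites nearest to a channel gene were promoter sites, against 36 of the 59 nearest to another gene. Of the 86 sites, 15 were called in all 3 NR libraries (17.4%, beside 14.7% of all NR sites), and none of these had a channel gene as its nearest start.

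The sequences below show sites that lie nearest to a potassium channel gene or carry a searched motif in a channel gene's window, as bases of mm10 (GRCm38, plus strand) centred on the summit, with motif matches in capitals. Motifs were searched on both strands: the full glucocorticoid response element, its core ACANNNTGT, which can lie within the full element, the full NFI palindrome, the NFI half-site TTGGCA, and AP-1 (TGACTCA or TGAGTCA), the site of the FOS and JUN factors. The first pair are among the sites with the highest GR fold enrichment in NR astrocytes of those nearest to a channel gene and called in both GR-Con libraries. The first of them lay in the window of Kcnrg, a regulator of channel assembly (chr14:61648814-61648914). It was 41407 bp downstream of the Kcnrg start, beyond the end of this 5.37 kb gene, and within 500 bp of another transcript start. The other lay upstream of Kcnk1, the two-pore channel TWIK1 (chr8:125987342-125987442). The next is the only NR astrocyte GR site in these windows with a full response element, upstream of Kcne1, an auxiliary subunit, at chr16:92377170-92377270. Of the 3T3 DEX sites, the pair with a full element lay in the windows of Kcnh6 (chr11:105958808-105958908) and Kcnj15 (chr16:95241673-95241773), and a site downstream of Kcnv2 held AP-1 (chr19:27351800-27351900). The last are the NFIA astrocyte sites with a full NFI palindrome, in the windows of Kcnip2 (chr19:45822035-45822135) and Kcne1l (chrX:142310554-142310654).
Kcnrg: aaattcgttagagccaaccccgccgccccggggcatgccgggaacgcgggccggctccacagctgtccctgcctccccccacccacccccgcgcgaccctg
Kcnk1: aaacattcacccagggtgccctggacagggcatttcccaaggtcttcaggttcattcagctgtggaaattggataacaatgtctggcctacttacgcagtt
Kcne1: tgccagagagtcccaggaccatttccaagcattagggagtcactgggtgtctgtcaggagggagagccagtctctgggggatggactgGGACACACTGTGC
Kcnh6: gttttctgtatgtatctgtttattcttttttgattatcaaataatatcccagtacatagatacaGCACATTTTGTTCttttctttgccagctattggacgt
Kcnj15: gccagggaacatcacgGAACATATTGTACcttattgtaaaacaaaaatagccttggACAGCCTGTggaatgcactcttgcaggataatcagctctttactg
Kcnv2: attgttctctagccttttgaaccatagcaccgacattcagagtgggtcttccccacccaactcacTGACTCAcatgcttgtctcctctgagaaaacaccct
Kcnip2: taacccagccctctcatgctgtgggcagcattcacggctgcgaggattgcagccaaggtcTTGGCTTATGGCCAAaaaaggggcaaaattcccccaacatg
Kcne1l: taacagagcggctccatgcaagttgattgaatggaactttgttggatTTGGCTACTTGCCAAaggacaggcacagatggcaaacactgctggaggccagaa

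Matches were rare, as they were over all sites. A full response element was found in 1 of the 86 NR GR sites (1.16%, beside 0.666% of all NR GR sites), the core in 3 (3.49%, beside 2.47%), the NFI half-site in 11 (12.8%, beside 12.5%) and AP-1 in 1 (1.16%, beside 1.55%). None of the 32 GR-Con sites in these windows held the full element, beside 1.39% of all GR-Con sites. Of the 13 DEX sites of 3T3 cells, 2 held the full element (15.4%, beside 5.34%) and 4 held AP-1 (30.8%, beside 23.0%). Among 161 NFIA sites of astrocytes, 2 held the full NFI palindrome (1.24%, beside 0.366%) and 25 the half-site (15.5%, beside 17.2%). The 9 sites of InN and the 9 of ExN held none of the searched motifs.

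Inward rectifiers let potassium flow inward more easily than outward, and Kcnj10, left out here, is the main one of astrocytes. Kcnj9 encodes GIRK3, a subunit of channels opened by G proteins. Its window held 16, 1 and 21 GR peaks in the NR libraries, 7 and 9 in GR-Con and none in DR, and GR-KO replicate 1 had 2. It held 1, 0 and 1 peaks in ExN and none in InN or oligodendrocytes. This was the highest number of any of the 93 genes, but the start of Kcnj9 lies 11892 bp from that of Kcnj10, and all 14 of its NR GR sites and all 20 of its NFIA sites also lay in the window of Kcnj10. The nearest start was that of Kcnj10 for 5 of the 14 and that of Pigm for 2, and none had Kcnj9 as its nearest.

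Of the 14 inward rectifier genes, 4 (28.6%) had a GR site in NR astrocytes (Kcnj9, Kcnj14, Kcnj16 and Kcnj4), 2 (14.3%) in GR-Con and 6 (42.9%) an NFIA site. Over all genes the shares were 50.4%, 20.7% and 65.2%, and the other classes are read against the same shares. Kcnj16, which encodes Kir5.1, the partner of the Kcnj10 product, had 1, 0 and 1 GR peaks in NR, 1 and 0 in GR-Con, 1 NFIA peak in each astrocyte library, and none in neurons or oligodendrocytes. Its GR site coincided with a promoter of a Kcnj16 transcript, 29293 bp downstream of the gene's annotated start, with fold enrichments of 5.11 and 10.2 in NR replicates 1 and 3. Kcnj14 (Kir2.4) had peaks in 3 cell types: 3, 1 and 4 in NR astrocytes, 2, 1 and 1 in InN and 3, 0 and 1 in ExN, and the site that both neuron types had was a promoter site nearest to Cyth2.

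Two-pore channels carry the leak of potassium that keeps resting cells polarised. Kcnk4, which encodes the mechanosensitive channel TRAAK, had 8, 2 and 12 GR peaks in NR, none in DR, 6 and 7 in GR-Con and 1 in each GR-KO library. InN had 3, 0 and 1 and ExN 2, 1 and 1. NFIA gave 12, 11 and 11. None of its 8 NR sites had Kcnk4 as the nearest start: the sites sat at Bad, Esrra, Fkbp2, Gpr137, Prdx5 and Trmt112. Kcnk1, whose channel TWIK1 is abundant in astrocytes, had no other protein-coding start within 50 kb, and its NR GR site had Kcnk1 as the nearest start. That site, 7778 bp upstream of its start at chr8:125987266-125987542, had fold enrichments of 11.0 and 14.2 in NR replicates 1 and 3 and of 8.89 and 9.67 in GR-Con and 9.83 in GR-KO replicate 1, and was not called in NR replicate 2. The Kcnk1 window held 2, 0 and 5 GR peaks in NR, 2 and 2 in GR-Con, and 1 in each GR-KO library. Kcnk10 (TREK2) had 1 GR peak within its window in each of NR replicate 3, GR-KO replicate 2 and replicate 2 of the 3T3 DEX libraries at 250000 nuclei, and Kcnk2 (TREK1), a further leak channel of astrocytes, had no peak of either factor within 50 kb in any of the 39 libraries. Over the class, 6 of 14 (42.9%) had a GR site in NR astrocytes, 2 (14.3%) in GR-Con and 9 (64.3%) an NFIA site, beside 50.4%, 20.7% and 65.2% of all genes.

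Calcium- and sodium-activated channels had a GR site at 4 of 8 genes (50%) in NR astrocytes and 3 of 8 (37.5%) in GR-Con, and an NFIA site at 5 of 8 (62.5%), beside 50.4%, 20.7% and 65.2% of all genes. Kcnn1 (SK1) had 5, 1 and 6 GR peaks in NR, none in DR, 2 and 4 in GR-Con and none in GR-KO, and 4, 7 and 7 NFIA peaks. Of its 5 sites, 2 were nearest to Kcnn1 itself and others to Arrdc2 and Ccdc124. Kcnn3 (SK3) had 3, 0 and 5 GR peaks in NR, 1 and 1 in GR-Con and 9, 8 and 6 NFIA peaks. A site in its intron, 38957 bp downstream of its start, was shared by NR replicates 1 and 3 (fold enrichment 7.52 and 7.29) and both GR-Con libraries (5.39 and 5.99), and a further site lay 44 bp from its start. Kcnt1, the sodium-activated channel Slack, had 3, 0 and 4 GR peaks in NR and 3 and 2 in GR-Con, with none in DR or GR-KO. Its site 872 bp upstream of the start was called in NR replicates 1 and 3 (4.99 and 5.90) and both GR-Con libraries (3.80 and 6.92). Kcnma1, the BK channel, had a single GR peak in its window, in GR-KO replicate 2.

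Voltage-gated pore subunits formed the largest class, with a GR site at 10 of 30 (33.3%) in NR astrocytes and 7 of 30 (23.3%) in GR-Con, and an NFIA site at 18 of 30 (60%), beside 50.4%, 20.7% and 65.2% of all genes. Kcnq1 (Kv7.1) had 2, 1 and 3 GR peaks in NR, none in DR, 1 and 1 in GR-Con, none in GR-KO, and 3 NFIA peaks in each astrocyte library. The site called in all 3 NR libraries was nearest to Tssc4, with fold enrichments of 16.2, 6.68 and 22.9. Kcnh4 (ELK1) had 5, 2 and 6 in NR, 0, 0 and 1 in DR, 2 and 3 in GR-Con and 1 in GR-KO replicate 1, around Ghdc, Hcrt and Rab5c. Kcnd1 (Kv4.1) had 4, 2 and 5 in NR, none in DR, and 2 and 1 in GR-Con, at Otud5 and Gripap1. Kcna7 had 3, 2 and 3 in NR and 1 and 1 in GR-Con, at Gys1, Ppfia3 and Snrnp70. It also had 2, 0 and 0 in oligodendrocytes, 3, 0 and 0 in InN and 3, 0 and 1 in ExN.

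Kcna2, the voltage-gated subunit Kv1.2, had 4, 0 and 5 GR peaks in NR, 1 and 3 in GR-Con and 1 in GR-KO replicate 1, and an exonic site 12865 bp downstream of its start was called in NR replicates 1 and 3 (7.16 and 8.73), both GR-Con libraries (6.93 and 5.99) and GR-KO replicate 1 (4.64). Other channel genes well known from neurons had little: Kcnc1 (Kv3.1) and Kcna1 (Kv1.1) each had a GR peak in NR replicate 3 alone among astrocyte GR libraries, Kcnd3 (Kv4.3) had 2 in that library, Kcnd2 (Kv4.2) had none in astrocytes, and Kcnc2 (Kv3.2) had no peak in any library.

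Auxiliary subunits and regulators bind pore subunits and change their gating or traffic. Of 17 such genes, 8 (47.1%) had a GR site in NR astrocytes, 4 (23.5%) in GR-Con and 10 (58.8%) an NFIA site, beside 50.4%, 20.7% and 65.2% of all genes. Kcnmb3, a beta subunit of BK channels, had 3, 2 and 4 GR peaks in NR, 0, 0 and 1 in DR, 2 and 1 in GR-Con and none in GR-KO, at sites near Mfn1. Kcnab3, a beta subunit of Kv1 channels, had 1, 0 and 3 in NR, 1 and 1 in GR-Con 2, 0 and 1 in ExN and 0, 0 and 1 in InN, and its site was nearest to Chd3. Kcnrg, a regulator of Kv channel assembly, had 2, 0 and 3 in NR, 1 and 1 in GR-Con, 1, 0 and 1 in InN and 1, 0 and 0 in ExN. Kcnip3, which encodes the calcium-binding protein DREAM, had 4, 0 and 4 in NR and 0 and 1 in GR-Con, and its sites included 1 at 170 bp upstream of its start and 1 at 743 bp downstream. Kcnip4 had no astrocyte GR peak within its window, Kcnmb4 had an NFIA peak in astrocyte replicate 1 alone, and Kcnab1 was reached in 3T3 cells. Modifier pore subunits had a GR site in NR astrocytes at 1 of 10 genes (Kcng2, 10%), none in GR-Con and an NFIA site at 2 of 10 (Kcnf1 and Kcng4, 20%), beside the same shares of all genes.

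**Figure D3:**
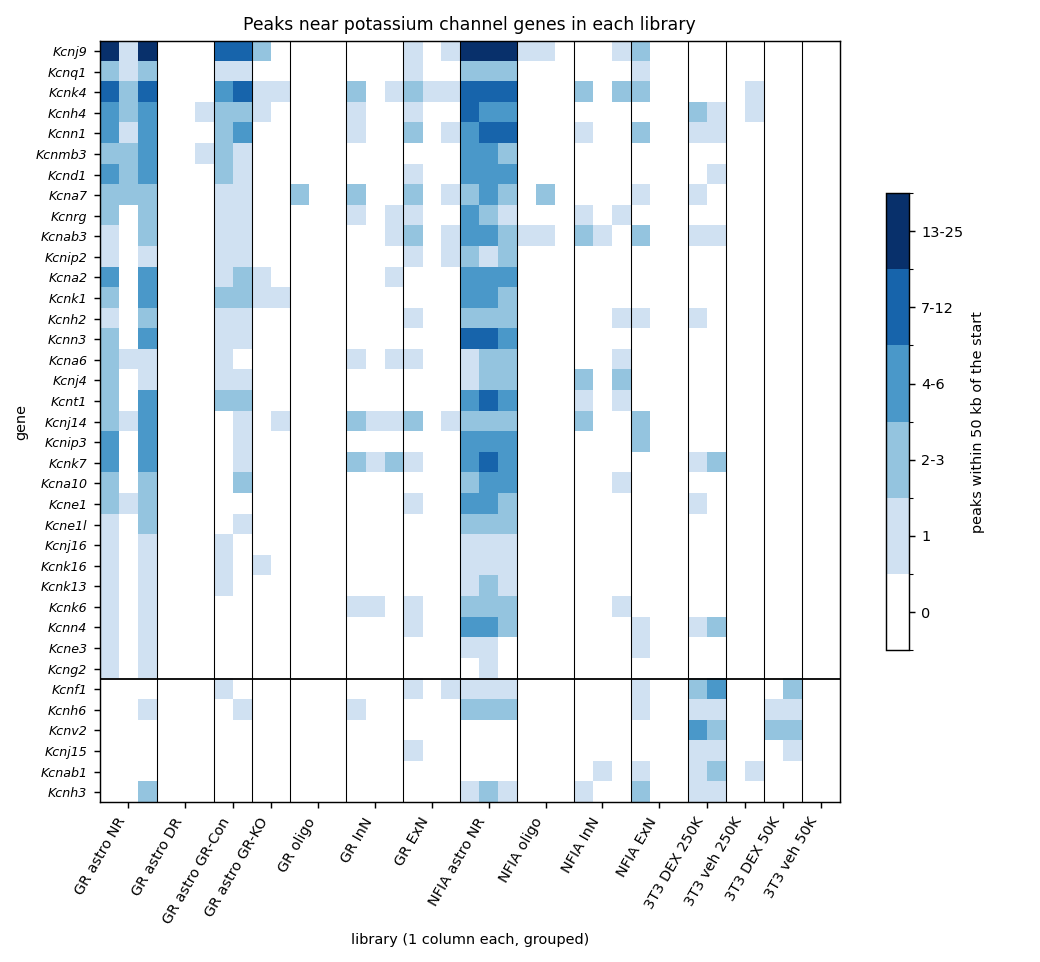
Number of peaks within 50 kb of the start (colour, in classes from 0 to 13-25) for potassium channel genes with named values (one line each) in every library (one column each, replicate 1 to the left within a group). Genes above the horizontal line had an NR GR consensus site, in order of the number of NR and GR-Con libraries with a peak; genes below it were chosen by their 3T3 DEX sites. NR replicate 2 and the DR columns are nearly empty beside NR replicates 1 and 3, and Kcnv2 is coloured only in DEX columns.

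Some windows overlap. This was so for 8 pairs of channel genes, among them Kcna10 and Kcna2, which shared 1 of the NR GR sites, and Kcne1 and Kcne2, which shared 1 NFIA site.

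**Figure D4:**
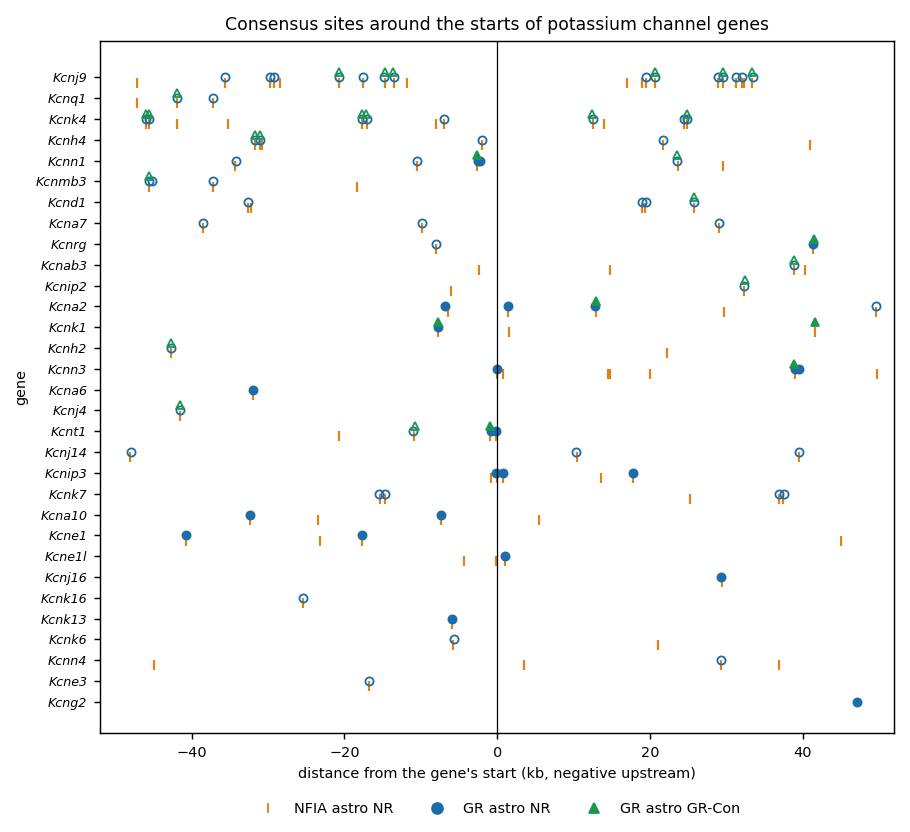
Distance of consensus sites from the gene's start (kb, negative upstream) for potassium channel genes with a GR site in NR astrocytes: GR in NR (circles), GR in GR-Con (triangles) and NFIA in astrocytes (bars). Filled circles and triangles are sites whose nearest start is that of the gene itself, and open ones are nearest to another gene, as are all 14 circles of Kcnj9.

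Light was the first contrast. Every NR library had more GR peaks than every DR library at 11 genes (Kcna6, Kcna7, Kcnd1, Kcne1, Kcnh4, Kcnj14, Kcnj9, Kcnk4, Kcnmb3, Kcnn1 and Kcnq1), which is 11.8% of the 93 and stands beside 10.7% of all genes. Kcnj9 had 12.7 ± 10.4 peaks (SD, n = 3) in NR and none in DR, and Kcnk4 had 7.33 ± 5.03 and none. Kcnd1 had 3.67 ± 1.53 and none. With 3 against 3 libraries the two-sided exact permutation test cannot go below p = 0.1, so 0 of the 52 channel genes with a peak passed the threshold with or without adjustment over the 14227 genes tested. NR replicate 2 decided the count: without it, 37 channel genes had more peaks in every NR library. The share of all genes without this library is not given here, so 37 is not read as a trait of channel genes. Counting only peaks whose nearest start was the channel gene's left 2 genes, beside 4.49% of all genes. No channel gene had more peaks in every DR library.

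Deletion of the receptor was the next contrast. In 18 genes (19.4%, beside 20% of all genes) both GR-Con libraries had more GR peaks than both GR-KO libraries, and none had the reverse. Kcnj9 had 8 ± 1.41 peaks (SD, n = 2) in GR-Con against 1 ± 1.41 in GR-KO, and Kcnk4 had 6.5 ± 0.707 against 1 ± 0. Kcnt1 had 2.5 ± 0.707 in GR-Con and none in GR-KO. Of the 36 genes tested none could pass, since the smallest p of the exact permutation test with 2 against 2 libraries is 0.3333. With peaks nearest to the channel gene alone, 6 genes did not overlap, beside 8.23% of all genes. Of the 86 NR sites in the channel windows, 50 (58.1%) were called in at least 1 GR-Con library, beside 58.7% of all NR sites, and 8 (9.30%) in at least 1 GR-KO library, beside 12.6%.

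Cell types were compared next, with the same 3 NR astrocyte libraries as in the light contrast. Astrocytes had more GR peaks in every library than each of the 9 libraries of oligodendrocytes, InN and ExN at 3 genes (Kcnd1, Kcnh4 and Kcnmb3, 3.23%, beside 4.52% of all genes). At Kcnmb3 no library of another cell type had a GR peak, and the astrocyte libraries had 3 ± 1 (SD, n = 3). At Kcnh4 the difference in mean peaks was 4.11 and at Kcnd1 it was 3.56, each with p = 0.00909 by exact permutation and an adjusted p of 0.138. After adjustment over all genes with a peak, 0 of 63 channel genes passed, and 9 (14.3%) had an unadjusted p under 0.05 in the exact permutation test, beside 2041 of the 15075 genes tested (13.5%). Kcnj9, with a difference of 12.4 peaks, had p = 0.0273 (exact permutation, adjusted p = 0.169). By single cell type, 11 channel genes had more peaks in every astrocyte library than in every oligodendrocyte library (beside 10.3% of all genes), 6 than in every InN library (beside 6.92%) and 3 than in every ExN library (beside 5.29%). The count of 3 also rested on NR replicate 2, without which it was 27, and on ExN replicate 1, without which it was 5. The shares of all genes without these libraries are not given here, so neither number is read as a trait of channel genes.

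NFIA peaks were tested at the 69 channel genes with a peak in any of the NFIA libraries. Lists of the other cell types held 1 to 4173 peaks against 22373 to 27143 in astrocytes, and the part of list size was not tested. At 43 of the 69 genes astrocytes had more, with an adjusted p under 0.05 (exact permutation). Some others, such as Kcnh5 and Kcnj4, had more in astrocytes on average without passing, and some, such as Kcnab1, had fewer. At 36 channel genes (38.7%, beside 50.4% of all genes) every astrocyte NFIA library had more peaks than all 9 libraries of the other cell types. An adjusted p under 0.05, by exact permutation with Benjamini-Hochberg adjustment over the 15857 genes tested, was reached at 43 of the 93 channel genes (46.2%), all of them higher in astrocytes, beside 58.3% of all protein-coding genes. Of the 69 channel genes with a peak these were 62.3%, beside 80.6% of all genes with a peak. With peaks nearest to the channel gene alone, 21 of the 93 (22.6%) passed, beside 31.5% of all genes. Kcnj9 had 19, 22 and 21 NFIA peaks in astrocytes and Kcnn3 had 9, 8 and 6. Kcnd1 had 5 in each library. Each of these was higher in astrocytes with an adjusted p of 0.013, the smallest reached (exact permutation). With peaks nearest to the gene's own start alone, Kcnn3 kept all of its astrocyte peaks (adjusted p = 0.0171 by exact permutation), whereas Kcnd1 had 1, 0 and 0 and Kcnj9 had 0, 1 and 0. Their differences were then 0.33 and 0.22 peaks, with adjusted p of 0.537 and 0.954 (exact permutation). Kcnd3 had 5, 3 and 2 NFIA peaks and also passed (adjusted p = 0.013 by exact permutation), although its window held GR peaks in 1 NR library alone. Kcnq3 (2, 3 and 2) passed with an adjusted p of 0.0357 by exact permutation. All astrocyte NFIA peaks of Kcnd3 and Kcnq3 were nearest to their own starts, and with such peaks alone the adjusted p was 0.0171 and 0.0473 (exact permutation). Against single cell types, 46 channel genes did not overlap with oligodendrocytes (beside 59.6% of all genes), 38 with InN (beside 56.1%) and 42 with ExN (beside 53.5%).

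The overlap of GR with NFIA sites in astrocytes was the last comparison in vivo. Of the 86 NR GR sites, 82 (95.3%, Wilson 95% interval 88.6% to 98.2%, counting error only) overlapped an NFIA site of astrocytes, beside 95.3% of all NR GR sites. The exceptions included the site in an intron of Kcng2. Every NFIA library had more peaks than every NR GR library at 8 genes (Kcnc4, Kcnf1, Kcnh6, Kcnip3, Kcnj11, Kcnk6, Kcnn3 and Kcnn4, 8.60%, beside 11% of all genes), and the exact permutation test could not go below p = 0.1. Without GR NR replicate 3 the count was 27, and it was 15 without NFIA replicate 1 and 17 without NFIA replicate 3. The shares of all genes without these libraries are not given here, so these counts are not read as a trait of channel genes. The antibodies differ, so peak numbers of GR and NFIA are set side by side only as values.

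By q, the best astrocyte NFIA peak of the Kcnab3 window stood highest among channel genes, in the top 0.0786% of the lists (median over 3 libraries). The windows of Kcnt1 (0.125%) and Kcnj9 (0.153%) followed. No astrocyte NFIA consensus site had Kcnab3 or Kcnj9 as its nearest start. For Kcnt1 the site of the best peak lay near Sohlh1, with fold enrichments of 55.1, 71.5 and 50.3.

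In neurons, some GR sites near channel genes were shared with astrocytes. Of the 86 NR astrocyte sites, 5 (5.81%, beside 3.50% of all NR sites) overlapped a consensus site of ExN and 4 (4.65%, beside 2.10%) of InN. Of the 45 NR astrocyte promoter sites in the windows, 17 (37.8%, beside 22.2% of all NR promoter sites) were called in at least 1 ExN library, and of the 41 other sites 2 were (4.88%, beside 1.77%). InN called 10 of the 45 (22.2%, beside 16.0%). For GR-Con astrocytes the order was the other way, with 23 of 45 promoter sites (51.1%) and 27 of 41 others (65.9%), beside 51.4% and 65.2%. A promoter site nearest to Esrra in the Kcnk4 window was called in all 3 ExN libraries, with fold enrichments of 6.87, 3.87 and 4.34.

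Other neuron sites had a channel gene as their nearest start and were not called in any NR astrocyte library. In InN these included sites upstream of Kcnh7 (28542 bp, fold enrichment 6.83 and 6.22 in replicates 1 and 3), Kcna6 (29666 bp, 4.76 and 4.52) and Kcng3 (1184 bp, 7.26 and 6.22). The Kcnh7 product belongs to the ether-à-go-go-related channels. In ExN they were an intron of Kcnj9 5156 bp from its start (4.51 and 3.14 in replicates 1 and 3) and a site 27630 bp upstream of Kcnq3 (3.36 and 4.67), the Kv7.3 subunit of the M-current. The neuron counts rest on single libraries. Without InN replicate 1 no channel gene had an InN site, beside 1.14% of all genes, and without InN replicate 3 there were 2, beside 2.59%. Without ExN replicate 1 or 3 there was 1 with an ExN site, for which the share of all genes is not given here.

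Dexamethasone in 3T3 cells brought GR to another set of channel genes. At 250000 nuclei both DEX libraries had more peaks than both vehicle libraries at 10 genes (among them Kcnab3, Kcnf1, Kcnh3, Kcnh6, Kcnj15, Kcnk7, Kcnn1, Kcnn4 and Kcnv2, 10.8%, beside 9.05% of all genes). Kcnv2, a modifier subunit of Kv2 channels known from photoreceptors, had 4 and 3 peaks after DEX at 250000 nuclei, 2 and 3 at 50000 nuclei, none in the 4 vehicle libraries and none in any V1 library. Its 3 sites lay 14318, 29262 and 47426 bp downstream of its start, with fold enrichments of 6.69 and 5.20, of 8.35 and 7.82, and of 7.97 and 5.93 at 250000 nuclei. Kcnf1, another modifier, had 3 and 4 peaks after DEX, 0 and 2 at 50000 nuclei and none after vehicle. Kcnh6 had 1 in each DEX library and Kcnj15 had 1, 1, 0 and 1, with none after vehicle. The site in the Kcnh6 window had fold enrichments of 9.11 and 16.1 at 250000 and 8.34 and 10.6 at 50000 nuclei, but Cyb561 was the nearest start. Permuting libraries within each number of nuclei, 0 of 21 channel genes passed with or without adjustment, and the smallest p was 0.0556 (exact permutation, 36 arrangements). The 3T3 lists had passed a looser threshold than the V1 lists, so their numbers are not compared with those of astrocytes.

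Genes fixed as related lists give a frame. Of 44 genes of other cation channels (sodium, calcium and HCN channels), 10 (22.7%) had a GR site in NR astrocytes, 3 (6.82%) in GR-Con and 21 (47.7%) an NFIA site, beside 50.4%, 20.7% and 65.2% of all genes. Of 12 genes of potassium handling (sodium pumps, cation-chloride cotransporters, the water channel and gap junctions), 8 (66.7%) had a GR site in NR, 5 (41.7%) in GR-Con and 11 (91.7%) an NFIA site.

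Because many channel genes are longer than the window, sites within the whole gene were also counted, an alternative chosen after seeing the data. By this measure 17 channel genes (18.3%) held a GR site in NR astrocytes, beside 28.1% of all genes, 8 (8.60%) in GR-Con, beside 8.44%, and 30 (32.3%) held an NFIA site, beside 42.5%. In NR astrocytes 16 of these sites, in 10 genes, lay more than 50 kb from the annotated start. They included a Kcnk2 site at 184.5 kb, 2.60 kb from the start of a shorter transcript (fold enrichment 8.34 and 7.74 in NR replicates 1 and 3). A Kcnk10 site at 53.3 kb (4.94 and 10.9) was also called in both GR-Con libraries (4.29 and 4.43) and in GR-KO replicate 1 (3.58). Further sites beyond 50 kb lay in Kcnma1 at 165.8 kb (5.68 and 8.78) and in Kcnip4, with 2 sites near 232 kb. The ExN GR libraries had 1 such site, in Kcnt2, and InN had 4, in Kcnma1, Kcnmb2 and Kcnq5.

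Kcnn2, the SK2 channel of the afterhyperpolarisation, held the most of these sites and was singled out after its values were seen. Its annotated start lies far upstream of the start of other transcripts, and its window of 50 kb held only 1 GR peak, in NR replicate 3. Within the gene there were 6 GR sites in NR astrocytes, 5 for GR-Con and 8 NFIA sites. The site at 290.5 kb, a promoter 0.088 kb from a transcript start, had fold enrichments of 5.38, 5.14 and 12.9 in NR and 5.60 and 5.90 in GR-Con, and was not called in DR or GR-KO. The site at 394.8 kb was called in all 3 NR libraries (4.78, 21.4 and 8.26) and in all 3 DR libraries (9.47, 5.10 and 18.8), in both GR-Con libraries (7.94 and 9.24) and in GR-KO replicate 1 (4.58). It was 1 of only 63 DR sites, of which 21 were called in all 3 DR libraries. The site at 409.6 kb had 11.1, 8.09 and 17.6 in NR, 20.4 and 10.1 in GR-Con, 10.6 in DR replicate 3 and 8.43 in GR-KO replicate 1. None of the 6 sites was called in oligodendrocyte, InN or ExN GR libraries. A fold enrichment is relative to the background of its own library, so values of NR and DR libraries at a site are not a comparison of binding.

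**Figure D5:**
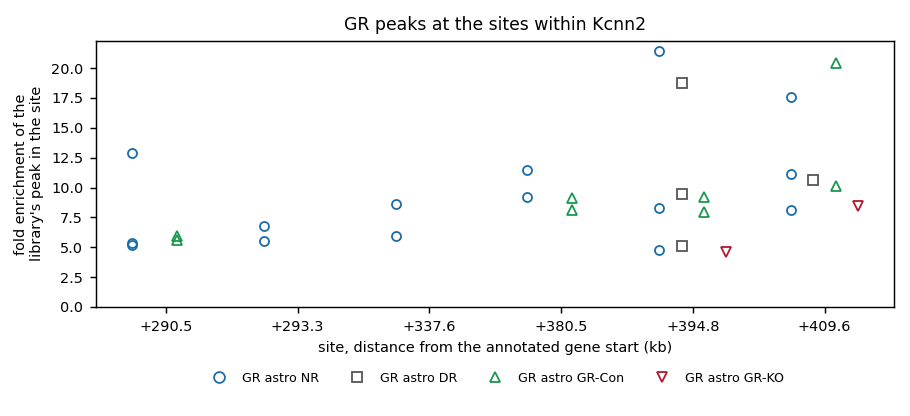
Fold enrichment of the GR peak of each astrocyte library (one point each) at the 6 NR sites within Kcnn2, ordered by distance from the annotated start (kb), for NR, DR, GR-Con and GR-KO; a library without a peak has no point. The site at 394.8 kb has points from all 3 DR libraries, whereas the site at 290.5 kb has none from DR or GR-KO.

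The genes without peaks complete the account. In 16 of the 93 genes no library of any group had a peak within 50 kb: Kcna4, Kcnb2, Kcnc2, Kcng1, Kcnh8, Kcnip1, Kcnj1, Kcnj13, Kcnj5, Kcnj8, Kcnk18, Kcnk2, Kcnmb2, Kcnq5, Kcns2 and Kcnt2. Over all genes 23.7% had none.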

How the data were processed

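Peak lists of 39 CUT&RUN libraries were analysed, 27 for GR and 12 for NFIA. Per the submitters' processing notes and the methods of the study, cutadapt was used by the authors to trim reads, Bowtie2 to align them to mm10, Picard, SAMtools and deepTools to filter them, and MACS2 to call peaks in each library against IgG. Each deposited peak holds a score, a ratio of signal to background (the fold enrichment), a −log10 p and a −log10 q, all made by the authors' peak caller. The deposited −log10 q served to rank and filter peaks, the ratio to describe them, and the score was not used. The highest q in the deposited lists was 0.00999 in vivo and 0.0498 in 3T3 cells, so peak numbers were not compared between them. No read counts are given, so depth is unknown and its effect on the number of peaks was not tested.

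Gene starts came from GENCODE M21 and sequence from GRCm38.p6, the build of the files. Peaks overlapping the 50 kb on either side of a start were counted. Groups and replicate numbers came from the labels. Groups were compared by two-sided exact permutation of libraries on the difference in mean peak number, for every protein-coding gene with a peak, with Benjamini-Hochberg adjustment over all of them and a threshold of 0.05, and by whether the groups overlapped. In vivo replicates were pools of mice, and for 3T3 replicates nothing in the sources used here says how cultures were kept apart, so the spread that p-values measure is that of these samples, which may be technical. The intervals cover counting error only. The test was checked on simulated counts with the same baseline mean in every library. It was not checked with lists as unequal in size as these.

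The genes, their classes and the comparison lists were chosen with earlier results of these data known. Genes were named by a rule: up to 12 with an NR GR consensus site, ordered by the number of NR and GR-Con libraries with a peak and then by the rank of the best peak, up to 6 for each other GR group, up to 8 for astrocyte NFIA and up to 4 for other NFIA groups, and 22 astrocyte and neuronal channel genes whatever their values. The other names were given where a count or a site called for them, after their values were seen. Alternatives were windows of 10 and 100 kb, any transcript start, q at most 0.001, the top 1000 peaks per library, the nearest start only, a replicate block, other groups and each replicate left out. Python 3.11.15, numpy 2.4.6, pandas 2.3.3, scipy 1.17.1 and pysam 0.24.0 were used. Results for some genes are not reported here.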

Additional observations from a re-analysis of the deposited data

How the results depend on the processing

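The counts of channel genes whose groups did not overlap kept within 1.5 times their value with any transcript start, with q at most 0.001 and with a window of 100 kb, and depended on the narrower definitions and on single libraries. For GR in NR against DR astrocytes the count of 11 became 1 with a window of 10 kb, 2 with the top 1000 peaks per library and 2 with the nearest start only, and ranged from 11 to 37 with a replicate left out. For GR-Con against GR-KO the count of 18 became 2, 2 and 6, and ranged from 18 to 25 with a replicate left out. For GR in astrocytes against other cell types the count of 3 became 0 with 10 kb and 0 with the nearest start, 9 with GR-Con in place of NR, and 3 to 27 with a replicate left out, while the count with an adjusted p under 0.05 was 0 throughout. For NFIA in astrocytes the count of 36 became 14, 3 and 17 (36 to 39 with a replicate left out), and the 43 with an adjusted p under 0.05 became 16, 0 and 21 (37 to 45). For DEX in 3T3 cells the count of 10 became 0, 2 and 3, and 2 at 50000 nuclei (10 to 15). For NFIA against GR the count of 8 became 1, 2 and 5 (8 to 27). The overlap of GR with NFIA sites, 95.3%, was 42.9% among sites from the top 1000 peaks per library, beside 44.0% of all such sites, and 89.5% to 95.3% with a replicate left out. A smaller window, the top 1000 peaks and the nearest start count fewer peaks by construction. The cause of the other shifts was not tested. For the counts of genes in this paragraph, shares of all genes under the same alternative or with a replicate left out are not given beside them. The counts and ranges are therefore not read as a trait of channel genes. The NFIA difference at Kcnk4, 10.7 peaks, was −0.111 when only peaks nearest to its own start were counted (adjusted p = 1, exact permutation; over the other alternatives 0.0115 to 1).

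Replicate numbers were not taken to pair the samples: nothing in the labels ties a number to a shared litter or day, and in none of the pairs of groups with 3 numbers did every same-numbered pair correlate above 0.1. The correlations were −0.0396 to 0.0507 for NR and DR, −0.141 to 0.316 among the GR cell types, −0.226 to 0.292 among the NFIA cell types and 0.107 for GR-Con and GR-KO, which have 2 numbers. With a replicate block the cell type count for GR was 9 in place of 3, the NFIA count with an adjusted p under 0.05 was 39 in place of 43, and the other counts stayed within 1.5 times. Shares of all genes with a block are not given here, so these counts are not read as a trait of channel genes either. The files hold no reads, so what depth limits could not be measured.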
